A study of Mus musculus with 48 samples.

Results

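The acyl-CoA thioesterases examined here are 9 genes of the Acot family, Acot1, Acot2, Acot3, Acot4, Acot5, Acot7, Acot9, Acot12 and Acot13, out of 22029 gene names tested on the liver arrays. They were chosen by name. Every probe that carries one of these names in the scanner files was used, which gave 14 probes, and all 9 genes had a probe that passed the filter on low signal. Liver RNA came from 48 male C57BL/6J-background mice, with a single array for each animal and 6 groups of 8. WT mice carried no engineered allele and were bought from a breeder. Pparα-/- mice lacked the receptor gene in every cell. Pparα hep-/- mice carried 2 floxed Pparα alleles and an albumin-Cre transgene, which acts in hepatocytes, and both deleted lines were bred in the study's own facility. WT mice were not littermates of either line, so genotype and origin of the mice cannot be told apart. Each genotype was fed a low-fat control diet (CTRL) or a high-fat diet (HFD) with 60% fat, for 12 weeks by the sample labels, which give an age of 20 weeks, while the methods give a shorter feeding period. All mice were housed at thermoneutrality and killed fed. The array reads whole liver, so fewer cells of a type and less RNA per cell cannot be told apart.

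Acyl-CoA thioesterases split the bond between coenzyme A and a fatty acyl group, releasing the free fatty acid and CoA. They work against the acyl-CoA synthetases, which attach CoA before fatty acids are oxidised or built into lipids. Acot1 acts in the cytosol, Acot2 in mitochondria, and Acot3, Acot4 and Acot5 in peroxisomes. These 5 paralogs lie side by side on mouse chromosome 12 and several are classical targets of PPARα, the nuclear receptor that senses fatty acids in liver. Acot7 is a cytosolic enzyme best known from brain, Acot9 is mitochondrial, Acot12 prefers acetyl-CoA and is abundant in liver, and Acot13 is a small thioesterase associated with mitochondria.

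Levels are given as log2 signal, the log2 of the median spot intensity after quantile normalisation over the 48 arrays, and are compared only within a probe. Differences are those fitted by limma with a term for the wash batch and a weight for each array, and a difference was called at a Benjamini-Hochberg adjusted p of at most 0.05 within its comparison. The number of mice limits the precision. The Ppara probe, named after the deleted gene, averaged 14.57 ± 0.31 (SD, n = 8) on CTRL in WT mice, with 14.03 ± 0.33 for Pparα hep-/- and 13.89 ± 0.19 for Pparα-/- animals. On the HFD the means in that order were 15.02 ± 0.25, 14.27 ± 0.14 and 14.03 ± 0.13, and on this diet no mouse of either deleted line reached the range of the WT mice. The position of this probe relative to the deleted exon is not given in the sources used here, so it is a limited check of the labels. The 8 hepatocyte markers were all measured, and 0 rose and 1 fell between WT diets. Median spot intensity ranged from 56 to 91 per array, over a local background of 20 to 36.

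Several mice stood apart. Replicates 1 and 2 of the WT HFD group had the lowest signal of their group for 8 of the 9 thioesterases, all but Acot9. Both mice were the lowest of the group for 12% of all 22029 genes tested and the highest for 12.9%. Their array weights were 0.537 and 0.343, in a range of 0.189 to 2.53. They came from different wash batches and slides. Cfd, the adipsin gene, was at 7.49 and 5.74 log2 signal in these 2 mice with the lowest of the other 6 at 13.9, against 5.70 to 9.92 in WT CTRL mice. Of 5 white adipocyte markers, Adipoq and Plin1 did not pass the signal filter, and Cfd was the only one of the other 3 called higher on the HFD in WT mice. The summed signal of these 3 markers ranged from 425 to 47018 in WT HFD mice and from 266 to 1232 in WT CTRL mice. The part of these differences in the Acot results was not tested. Other arrays of low weight were replicate 1 of Pparα hep-/- CTRL (0.189), replicate 6 of WT CTRL (0.208), replicate 6 of WT HFD (0.372) and replicate 3 of Pparα-/- CTRL (0.419). Called differences of the 9 genes that rest on the WT HFD group are given with and without replicates 1 and 2. This was done by value or by call for the probe of highest mean signal, a choice made after the values had been seen. Dimmer probes, and other genes compared with WT on the HFD, are given only with all mice. No fit without array weights is given for dimmer probes or other genes.

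The 5 promoters of the chromosome 12 genes are shown because these genes moved together in the liver. Each is the RefSeq stretch from 250 bases before to 50 bases after the transcription start in GRCm38.p6, in the order of the genes along the chromosome, with the nuclear receptor element AGGTCA in capitals on either strand (TGACCT on the other).
Acot2 promoter, chr12:83987611-83987910, plus strand: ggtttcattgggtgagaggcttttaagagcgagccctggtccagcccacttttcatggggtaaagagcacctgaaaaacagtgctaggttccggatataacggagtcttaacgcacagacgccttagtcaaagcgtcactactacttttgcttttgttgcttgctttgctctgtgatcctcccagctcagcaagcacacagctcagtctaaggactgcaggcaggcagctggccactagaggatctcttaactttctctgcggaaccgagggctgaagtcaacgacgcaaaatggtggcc
Acot1 promoter, chr12:84009252-84009551, plus strand: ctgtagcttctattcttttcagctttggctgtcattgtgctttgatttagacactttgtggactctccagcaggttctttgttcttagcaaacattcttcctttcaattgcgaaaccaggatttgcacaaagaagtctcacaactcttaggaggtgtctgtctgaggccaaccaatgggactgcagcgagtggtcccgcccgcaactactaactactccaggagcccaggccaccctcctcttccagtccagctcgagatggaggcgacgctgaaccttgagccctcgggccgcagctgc
Acot4 promoter, chr12:84038129-84038428, plus strand: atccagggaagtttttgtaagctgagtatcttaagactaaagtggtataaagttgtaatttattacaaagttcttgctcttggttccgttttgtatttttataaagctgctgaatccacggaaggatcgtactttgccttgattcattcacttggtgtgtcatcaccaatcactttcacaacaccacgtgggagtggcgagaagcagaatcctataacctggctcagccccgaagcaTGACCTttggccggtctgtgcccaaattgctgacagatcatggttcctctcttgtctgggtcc
Acot3 promoter, chr12:84051894-84052193, plus strand: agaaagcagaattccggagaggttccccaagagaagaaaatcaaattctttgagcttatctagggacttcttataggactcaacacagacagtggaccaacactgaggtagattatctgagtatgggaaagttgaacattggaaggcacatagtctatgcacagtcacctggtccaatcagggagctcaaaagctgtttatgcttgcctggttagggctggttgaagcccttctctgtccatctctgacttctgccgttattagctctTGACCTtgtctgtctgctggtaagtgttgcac
Acot5 promoter, chr12:84069074-84069373, plus strand: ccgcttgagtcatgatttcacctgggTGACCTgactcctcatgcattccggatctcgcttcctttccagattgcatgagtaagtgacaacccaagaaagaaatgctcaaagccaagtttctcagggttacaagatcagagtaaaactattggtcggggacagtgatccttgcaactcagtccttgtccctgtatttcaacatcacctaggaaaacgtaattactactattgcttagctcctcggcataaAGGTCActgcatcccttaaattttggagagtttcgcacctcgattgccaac
The element occurred in the windows of Acot3, Acot4, Acot5 and Acot12, with 2 matches in Acot5. It was not found in those of Acot1, Acot2, Acot7 and Acot9, and Acot13 was not searched. Among all 32851 promoter windows of this length, 16.3% held it. Its direct repeat AGGTCANAGGTCA, searched on both strands, was in 0.0396% of all windows and in none of the windows of these 8 genes. A looser form that contains it, AGGNCANAGGNCA, was in 0.381% of all windows and again in none of theirs. These are matches of letters in a short window only. Acot3 and Acot5 each have 2 listed starts a few bases apart, of which the first is printed.

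Acot1 to Acot5 rose on the HFD in WT mice, with fitted differences of 1.21 to 2.32 on the log2 scale. In this comparison 7 of the 9 Acot genes were called higher and 0 lower, against 9.32% of all tested genes higher and 10.1% lower. The WT HFD group was split, since 6 mice were at high signal for these genes and replicates 1 and 2 were within the WT CTRL range or below it. For Acot1, the cytosolic member, the 8 WT CTRL mice had a lowest signal of 9.65, a median of 11.37 and a highest of 12.83. The WT HFD mice ranged from 8.52 to 13.88 with a median of 13.17. Replicates 2 and 1 were at 8.52 and 9.89, and the other 6 were at 12.80 or above, so the 2 diets overlapped. The fitted difference of Acot1 was 1.91 (SE 0.50, adjusted p = 0.00537), a 3.76-fold rise.

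Acot2, the mitochondrial enzyme of the cluster, ranged from 6.60 to 10.13 in WT CTRL mice (median 7.82) and from 6.19 to 10.94 in WT HFD mice (median 9.76). Its difference was 2.04 (SE 0.37, adjusted p = 0.000122), or 4.10-fold. The groups overlapped at both ends, because replicate 6 of the WT CTRL group was at 10.13. Acot3, a peroxisomal member, ranged from 7.57 to 11.82 in WT CTRL mice (median 8.88) and from 5.99 to 12.79 in WT HFD mice (median 11.80). Its 2 low HFD mice, at 5.99 and 6.72, were below every WT CTRL mouse, whereas the other 6 were at 11.64 or above. Acot3 had a fitted difference of 2.32 (SE 0.60, adjusted p = 0.00427), or 5.01-fold, and its dimmer probe gave 2.37 (adjusted p = 0.00267).

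Acot4, the second peroxisomal member, ranged from 8.39 to 10.38 in WT CTRL mice (median 9.29) and from 7.84 to 10.97 in WT HFD mice (median 10.63). Its difference was 1.21 (SE 0.27, adjusted p = 0.00127), and its second probe gave 1.20 (adjusted p = 0.00121). Acot5 ranged from 5.64 to 7.62 in WT CTRL mice (median 6.43) and from 5.77 to 8.87 in WT HFD mice (median 8.02). The 6 WT HFD mice other than replicates 1 and 2 were all above the highest WT CTRL mouse for Acot4 and Acot5. Acot5 had a difference of 1.61 (SE 0.34, adjusted p = 0.000642), or 3.06-fold.

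**Figure D1:**
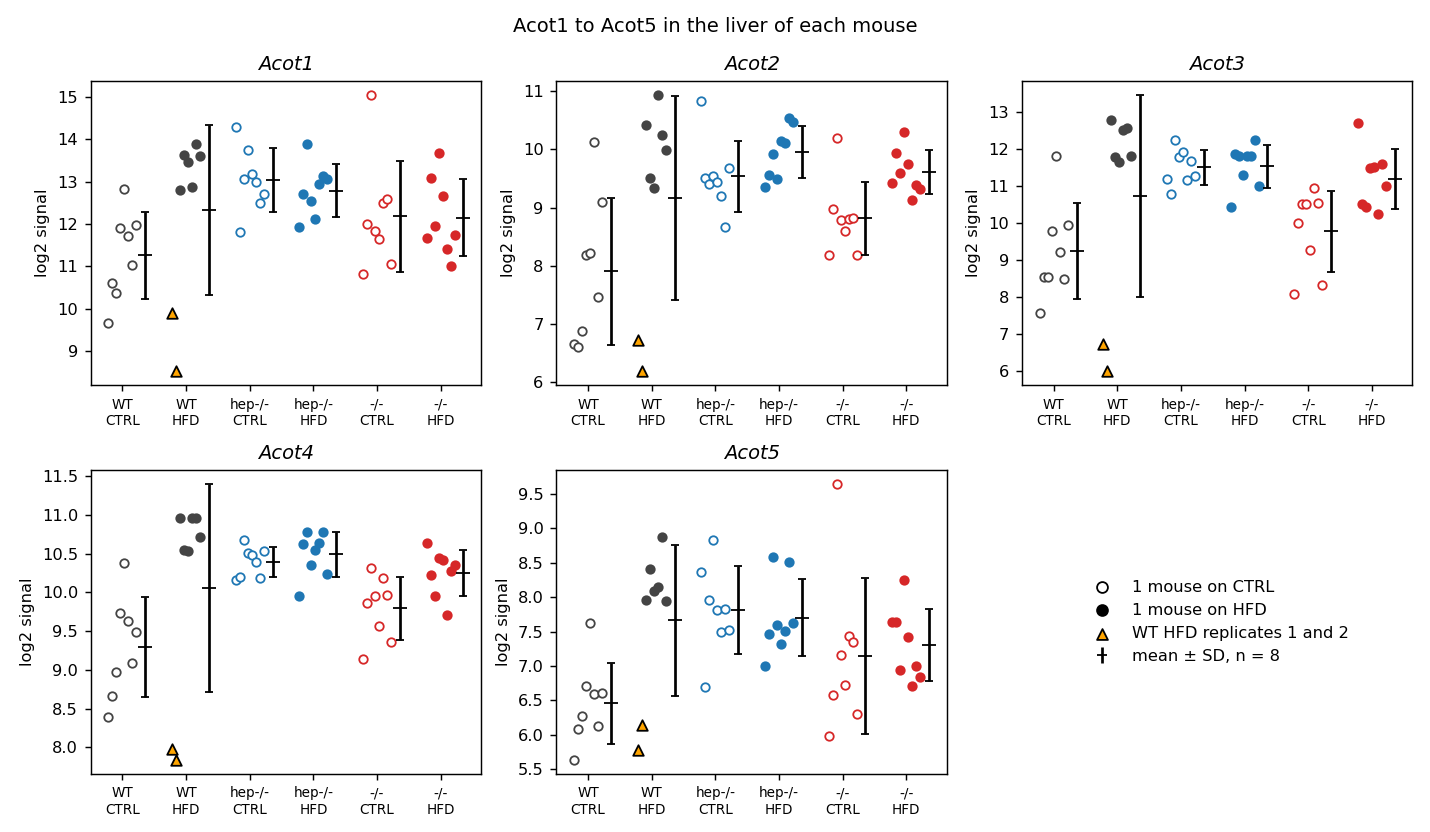
Log2 signal (vertical axis) of Acot1 to Acot5 in each mouse of the 6 groups (horizontal axis), with open points for CTRL, filled points for HFD, orange triangles for WT HFD replicates 1 and 2, and the mean ± SD of 8 mice. The 2 triangles lie within the WT CTRL range or below it, while the other 6 WT HFD mice lie high, at 11.64 or above for Acot3.

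The size of these WT differences depended on the array weights. Without weights the differences were 1.07 for Acot1, 1.27 for Acot2, 1.49 for Acot3, 0.77 for Acot4 and 1.21 for Acot5. Only Acot5 was then called (adjusted p = 0.0242), while the others had adjusted p from 0.0717 for Acot2 to 0.232 for Acot1. Without the filter on low signal Acot1 was not called either (1.62, adjusted p = 0.0515). Without weights 13% of all genes were called in either direction, against 19.5% with them. Without replicates 1 and 2 the weighted differences were 1.52 to 2.95 and all 5 genes were called, with adjusted p of at most 6.95e-05, against 10.6% of all genes higher and 11.6% lower in that fit. Within the first wash batch the plain differences of means were 0.83 to 1.70, and within the second 0.71 to 1.29, with 1 of the 2 low mice in each batch.

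The dimmer Acot5 probe did not follow the brighter one. The first 30 bases of both are shown, with mm9 positions from the files, because the probes lie close together and differed in their result.
Acot5 brighter probe, chr12:85416634-85416693: ggagaagccccagattgtctgctaccccaa
Acot5 dimmer probe, chr12:85416893-85416951: cgctggtcctgttcccctgagaattaggat
The dimmer probe gave 0.07 (SE 0.11, adjusted p = 0.735) for the HFD in WT mice. It was well above background on 5 of 8 WT CTRL arrays and its group means lay between 5.96 and 6.19, and the part of the low signal in the missing call was not tested.

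In Pparα hep-/- mice 2 Acot genes rose on the HFD, Acot9 and Acot13, and 1 fell, Acot7, against 10.7% of all genes higher and 11.8% lower. None of Acot1 to Acot5 was called. Acot1 ranged from 11.80 to 14.28 on CTRL (median 13.01) and from 11.94 to 13.88 on the HFD (median 12.82), with a difference of -0.22 (95% interval -1.08 to 0.64). Acot3 had medians of 11.47 on CTRL and 11.80 on the HFD and a difference of 0.11 (interval -0.91 to 1.13). Acot4 gave 0.11 (interval -0.36 to 0.57), Acot5 -0.18 (interval -0.76 to 0.40) and Acot2 0.59 (interval -0.05 to 1.22). The 2 diets overlapped for all 5 genes.

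Among Pparα-/- mice only Acot9 was called, and it rose, against 13.8% of all genes higher and 12.6% lower. Acot2 was higher in 8 of 8 HFD mice than the CTRL mean, with a difference of 0.85 (SE 0.33, adjusted p = 0.0542). Acot3 ranged from 8.08 to 10.94 on CTRL and from 10.23 to 12.69 on the HFD, with a difference of 1.33 (SE 0.53, adjusted p = 0.0596) that did not pass the threshold. Within the wash batches the plain differences of Acot3 were 0.46 and 2.37. Acot1 gave -0.03 (interval -0.93 to 0.87), and 1 CTRL mouse, replicate 3, was at 15.04 while the other 7 were at 12.59 or below. Without the 2 low WT HFD mice the differences in Pparα-/- mice were nearly the same and 5 genes were called, against 13.9% of all genes higher and 12.5% lower in that fit. They were Acot2 (0.85, adjusted p = 0.0122), Acot3 (1.32, 0.0123), Acot4 (0.45, 0.0470), Acot9 (0.72, 0.00139) and Acot13 (0.22, 0.0403).

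**Figure D2:**
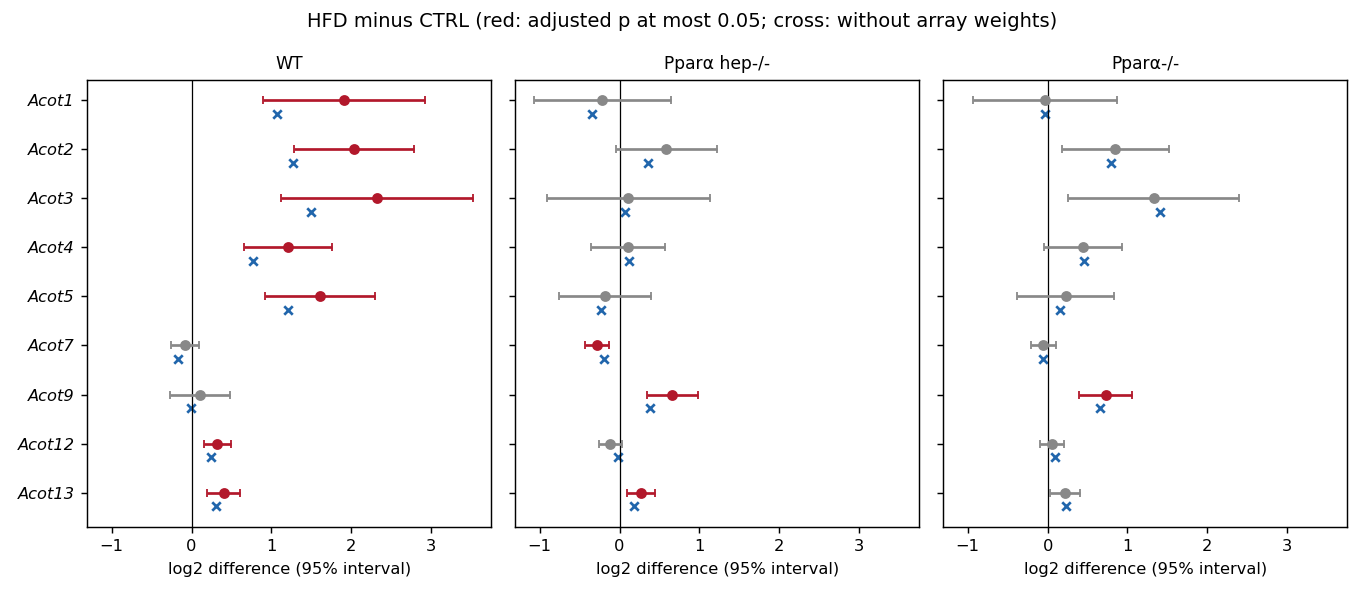
Fitted log2 difference of HFD minus CTRL (horizontal axis) with its 95% interval for the 9 Acot genes (vertical axis) in each genotype, red where called, with crosses for the fit without array weights. Acot1 to Acot5 were called in WT mice at 1.21 to 2.32, and the crosses there lie lower, at 0.77 to 1.49.

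The difference between the HFD responses was tested directly. Against Pparα hep-/- mice the WT response was larger for 5 Acot genes and smaller for 0, against 6.3% of all genes larger and 4.86% smaller. The difference of responses was 2.13 (SE 0.66, adjusted p = 0.0319) for Acot1, 1.45 (SE 0.49, adjusted p = 0.0488) for Acot2, 1.11 (SE 0.36, adjusted p = 0.0403) for Acot4, 1.80 (SE 0.45, adjusted p = 0.00822) for Acot5 and 0.44 (SE 0.11, adjusted p = 0.00854) for Acot12. Acot3 missed the threshold with its brighter probe (2.21, adjusted p = 0.0601) and passed it with the dimmer one (2.34, adjusted p = 0.0393). Without array weights none of these passed, with adjusted p from 0.187 for Acot5 to 0.593 for Acot2, and 0.935% of all genes were called in either direction, against 11.2% with weights. With the replicate number as a block 2 were called, Acot5 and Acot12. Without the 2 low WT HFD mice 6 were called, the same 5 and Acot3, against 7.5% of all genes larger and 5.97% smaller. The call was lost in 4 of the 15 settings for Acot1, in 5 for Acot4 and in 2 each for Acot5 and Acot12. For Acot2 it was lost in 6, among them the removal of the single array of lowest weight (1.42, adjusted p = 0.0506). The dimmer Acot5 probe gave -0.03 (adjusted p = 0.920), and the mean of both Acot5 probes 0.89 (adjusted p = 0.0117).

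Against Pparα-/- mice the WT response was larger for 2 Acot genes and smaller for 0, against 7.77% of all genes larger and 7.75% smaller. These were Acot1 (1.94, SE 0.67, adjusted p = 0.0449) and Acot5 (1.39, SE 0.46, adjusted p = 0.0339). Without replicate 3 of the Pparα-/- CTRL group, or with the replicate number as a block, only Acot5 was called, and without array weights neither was. Without the 2 low WT HFD mice Acot1, Acot2, Acot4, Acot5 and Acot12 were called, against 8.77% of all genes larger and 8.72% smaller. The dimmer Acot5 probe gave -0.01 here (adjusted p = 0.964), and the Acot1 call was lost in 6 of the 15 settings. Between the responses of the Pparα hep-/- and Pparα-/- mice 0 Acot genes were called in either direction by limma, against 1.38% and 2.55% of all genes, and 1 had an unadjusted p under 0.05, Acot7 (-0.23, interval -0.44 to -0.02). The interval of the Acot3 difference there was -2.70 to 0.26.

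The same 5 genes stood higher in Pparα hep-/- mice than in WT mice on the CTRL diet. In this comparison 5 Acot genes were called higher and 0 lower, against 12.3% of all genes higher and 12.9% lower. The differences were 1.82 for Acot1 (SE 0.49, adjusted p = 0.00468), 1.83 for Acot2 (SE 0.36, adjusted p = 0.000179) and 2.27 for Acot3 (SE 0.58, adjusted p = 0.00286). Acot4 differed by 1.16 (SE 0.27, adjusted p = 0.000995) and Acot5 by 1.41 (SE 0.33, adjusted p = 0.00125). The dimmer Acot5 probe gave 0.03 here (adjusted p = 0.888), and the mean of both probes gave 0.72 (adjusted p = 0.00172). For each of them 8 of 8 Pparα hep-/- mice were above the mean of the WT mice, though the ranges overlapped. Acot4, for example, ranged from 10.16 to 10.68 in Pparα hep-/- mice and from 8.39 to 10.38 in WT mice, with 1 WT mouse, replicate 5, inside the range of the other group.

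These 5 calls, each for the brighter probe, held under each of the 15 alternative settings tried. Without array weights the differences were 1.09 to 2.25, with adjusted p from 0.00590 to 0.0225. Within the wash batches the plain differences of means were 1.03 to 2.53 and 1.00 to 2.03. Among markers of other cells, 3 of 6 endothelial, 2 of 12 macrophage, 2 of 8 stellate and 1 of 7 neutrophil genes were higher in Pparα hep-/- than WT mice on CTRL and 0 lower, with medians of 0.26, 0.54, 0.29 and -0.15. Of the 8 hepatocyte genes 2 were lower and 0 higher, and no lymphocyte, cholangiocyte or adipocyte gene was called. The summed signal of the 6 endothelial genes ranged from 9097 to 14320 in WT and from 12364 to 16513 in Pparα hep-/- mice, and that of the macrophage and stellate genes from 25712 to 81928 and 19397 to 64356 in WT and from 42666 to 137022 and 28893 to 81403 in Pparα hep-/- mice. The part of these cells in the Acot differences was not tested. The WT HFD mice enter this comparison only through the normalisation, the array weights, the wash term and the spread. Of 30 known PPARα targets of fatty acid oxidation, 13 were lower in the same comparison, 1 was higher and 16 were not called. Lower genes included Vnn1 (-2.12, adjusted p = 3.17e-05), a pantetheinase that breaks down the CoA precursor pantetheine, and Fgf21 (-2.85, adjusted p = 1.39e-06), a fasting hormone. The higher one was Pdk4 (2.69, adjusted p = 1.30e-07), a kinase that inhibits pyruvate dehydrogenase. The median over these 30 genes was -0.13, and Cyp4a14 (0.37, adjusted p = 0.560) and Ehhadh (0.45, adjusted p = 0.0604) were among those not called.

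In Pparα-/- mice on the CTRL diet 1 Acot gene was higher than in WT mice and 0 lower, against 16.9% and 18.4% of all genes. It was Acot2 (1.14, SE 0.38, adjusted p = 0.0165), with 8 of 8 mice above the WT mean, and the plain differences within the wash batches were 1.15 and 0.68. Acot1 gave 0.90 (interval -0.13 to 1.93), Acot3 0.67 (interval -0.55 to 1.88), Acot4 0.55 (interval -0.01 to 1.11) and Acot5 0.61 (interval -0.08 to 1.31). The Acot2 difference was not called without array weights (0.91, adjusted p = 0.146) or without the filter (1.04, adjusted p = 0.0747). Here 4 of 12 macrophage, 3 of 7 lymphocyte, 2 of 8 stellate and 2 of 6 endothelial genes were higher than in WT mice. Lower were 1 lymphocyte, 1 endothelial, 1 neutrophil, 1 cholangiocyte and 1 adipocyte gene. Of the 8 hepatocyte genes 1 was higher and 2 lower. The part of these cells in the Acot2 difference was not tested. Compared with Pparα hep-/- mice on CTRL, Pparα-/- mice had 0 Acot genes higher and 3 lower, against 13.2% and 13.4% of all genes. Acot3 differed by -1.61 (SE 0.54, adjusted p = 0.0243), with plain values of -1.34 and -2.14 within the wash batches. Acot7 differed by -0.33 (adjusted p = 0.00110) and Acot12 by -0.26 (adjusted p = 0.00826). Without array weights Acot7 was called (-0.28, adjusted p = 0.0355), while Acot3 (-1.71, adjusted p = 0.0709) and Acot12 (-0.19, adjusted p = 0.241) were not.

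On the HFD none of the 5 clustered genes was called higher in either deleted line than in WT mice. In Pparα hep-/- mice 1 Acot gene was higher than in WT mice and 1 lower, Acot9 and Acot12, against 14.6% and 14% of all genes. Acot1 to Acot5 had differences from -0.38 to 0.38 there, all with adjusted p of 0.37 or more. Without the 2 low WT mice they were -0.75 to -0.01. Without array weights they were 0.40 for Acot1, 0.75 for Acot2, 0.83 for Acot3, 0.44 for Acot4 and -0.02 for Acot5, so that Acot1 turned direction, and again none was called (lowest adjusted p = 0.349). Within the wash batches the plain differences were 0.68 and 0.15 for Acot1 and 0.64 and 1.09 for Acot3. In Pparα-/- mice 1 Acot gene was higher and 3 lower, against 24.1% and 23.7% of all genes. Acot1 was lower by the fit (-1.04, SE 0.44, adjusted p = 0.0480), yet the plain difference of means was 0.31 in the first wash batch and -0.67 in the second, and without array weights it was -0.18 (adjusted p = 0.842). The call was lost in 5 of the 15 settings, the others being without the filter (-0.78, adjusted p = 0.264), without the wash term (-0.91, 0.118), with slide as a block (-0.96, 0.0845) and with the replicate block (-0.94, 0.0642). Acot5 was lower (-0.78, SE 0.30, adjusted p = 0.0300), with plain values of -0.50 and -0.22 and an unweighted value of -0.36 (adjusted p = 0.489). The dimmer Acot5 probe gave 0.12 (adjusted p = 0.332), and the mean of both probes -0.34 (adjusted p = 0.0715) was not called. Leaving out the 2 low WT mice, 7 Acot genes were lower than in WT mice and 1 higher, with Acot1 at -1.48 and Acot5 at -1.02, against 23.5% of all genes lower and 24% higher in that fit. Between Pparα-/- and Pparα hep-/- mice on the HFD 0 were higher and 1 lower, Acot13 (-0.26, adjusted p = 0.0165), against 16.9% and 15% of all genes. This call was lost without array weights (-0.20, adjusted p = 0.232) and without the filter (-0.24, adjusted p = 0.0695).

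**Figure D3:**
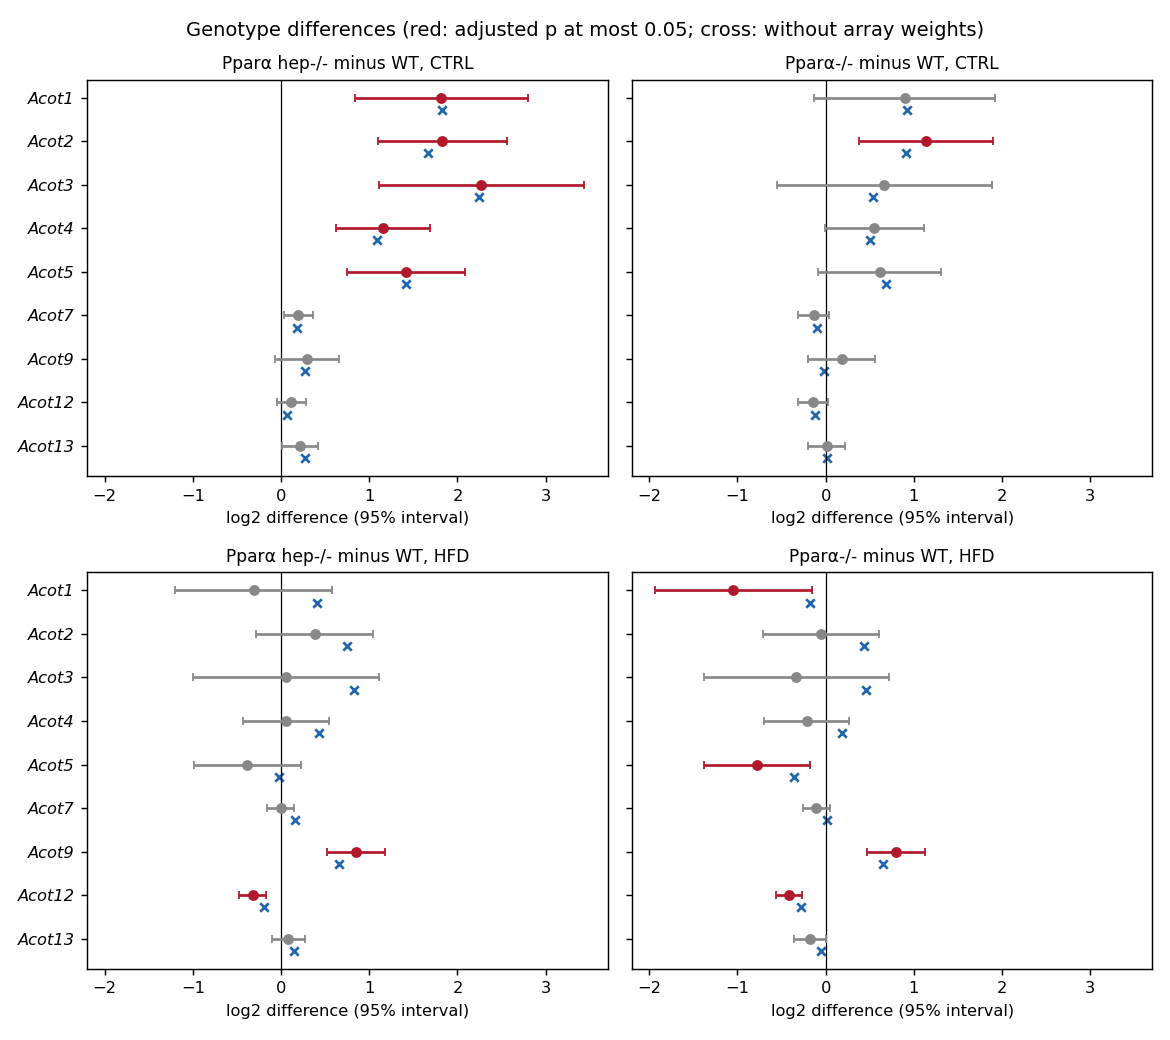
Fitted log2 difference from WT (horizontal axis) with its 95% interval for the 9 Acot genes (vertical axis), by deleted line and diet, red where called, with crosses for the fit without array weights. On CTRL the 5 clustered genes were 1.16 to 2.27 higher in Pparα hep-/- mice, with crosses at 1.09 to 2.25, and on the HFD their intervals span 0 in this line.

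Vnn1, a known target of PPARα in liver, was taken as a reference gene. It rose on the HFD in all 3 genotypes, by 2.39 in WT (adjusted p = 1.93e-05), by 1.64 in Pparα hep-/- (adjusted p = 0.000348) and by 1.26 in Pparα-/- animals (adjusted p = 0.00539). All 8 HFD mice of each deleted line were above the CTRL mean of their line. Vnn1 signal ranged from 8.41 to 10.22 in WT CTRL mice and from 9.04 to 12.34 in WT HFD mice, and replicates 2 and 1 were the lowest of the HFD group, at 9.04 and 10.21. On CTRL it ranged from 5.84 to 8.91 in the hepatocyte-specific line and from 5.18 to 7.45 in the whole-body one. Pparα hep-/- CTRL mice, with a mean Vnn1 of 7.39 ± 1.00 (SD, n = 8), thus had less Vnn1 and more Acot3 and Acot4 than WT CTRL mice, with a mean Vnn1 of 9.41 ± 0.73. Cyp4a14, a fatty acid omega-hydroxylase, was also lowest in replicates 1 and 2 of the WT HFD mice, at 5.49 and 5.74, with the other 6 at 8.33 or above.

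**Figure D4:**
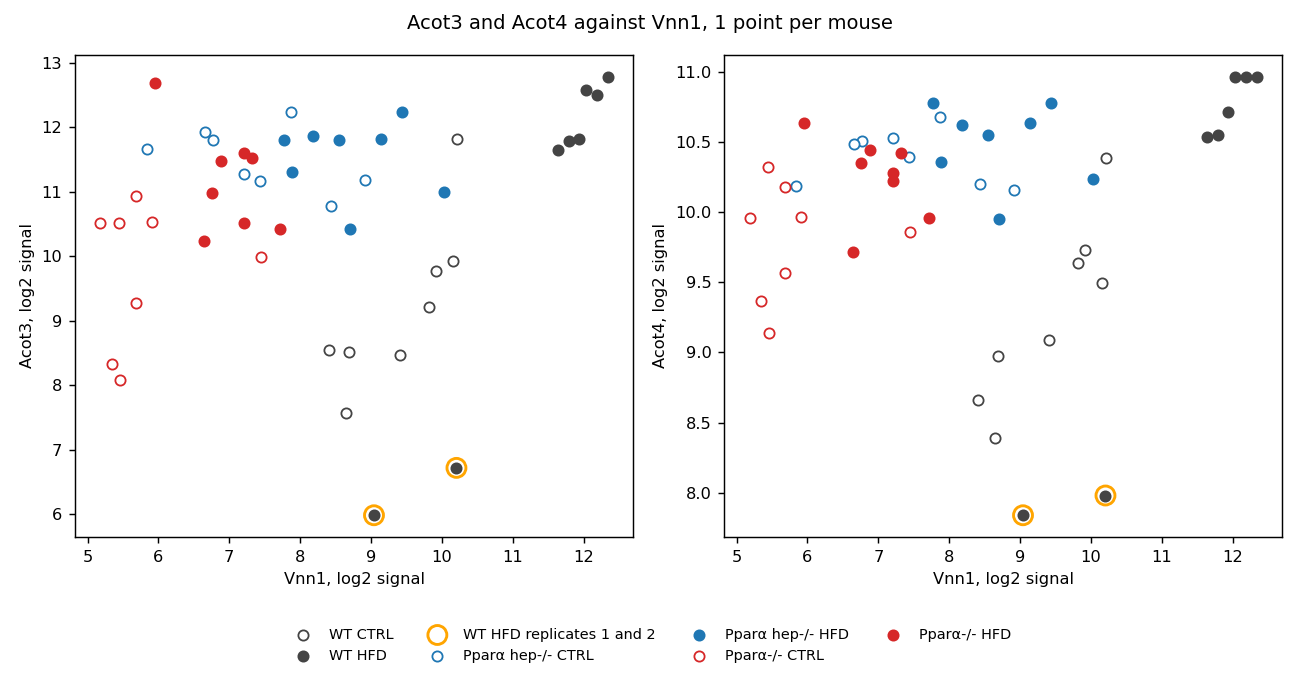
Log2 signal of Acot3 and of Acot4 (vertical axes) against that of Vnn1 (horizontal axis), 1 point per mouse, coloured by genotype and open for CTRL or filled for HFD, with WT HFD replicates 1 and 2 ringed. The ringed mice are at 5.99 and 6.72 for Acot3 and the 6 other WT HFD mice at 11.64 or above, while Pparα hep-/- CTRL mice have Acot3 of 10.78 or above at a Vnn1 of 8.91 or below.

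Acot9, a mitochondrial enzyme, was the Acot member that rose on the HFD in both deleted lines and not in WT mice. In Pparα hep-/- mice it ranged from 7.84 to 9.69 on CTRL (median 8.18) and from 8.18 to 9.21 on the HFD (median 8.79), a difference of 0.66 (SE 0.16, adjusted p = 0.00239). In Pparα-/- mice it ranged from 7.60 to 8.87 (median 7.96) and from 8.27 to 9.04 (median 8.75), a difference of 0.73 (SE 0.16, adjusted p = 0.00116), with 8 of 8 HFD mice above the CTRL mean. In WT mice the medians were 7.67 and 7.97 and the difference was 0.11 (interval -0.27 to 0.48). The tests of the difference between these responses were not past the threshold, with -0.55 against Pparα hep-/- mice (adjusted p = 0.136) and -0.62 against Pparα-/- mice (adjusted p = 0.0852). So Acot9 was not shown to respond differently between genotypes.

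On the HFD Acot9 was higher than in WT mice by 0.85 (SE 0.16, adjusted p = 0.000121) in Pparα hep-/- mice and by 0.80 in Pparα-/- mice (SE 0.16, adjusted p = 7.36e-05), with 8 of 8 mice above the WT mean in both. Its second probe gave 0.85 and 0.74. The fit without the 2 low WT mice gave 0.84 and 0.78, both called. Within the wash batches the plain values were 0.50 and 0.88 for the first line and 0.47 and 0.83 for the second. Without array weights the difference in Pparα-/- mice was still called (0.65, adjusted p = 0.0392), and that in Pparα hep-/- mice was not (0.66, adjusted p = 0.0814). The unweighted rise on the HFD was 0.38 in Pparα hep-/- mice (adjusted p = 0.501) and 0.66 in Pparα-/- mice (adjusted p = 0.0702), and neither was called.

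Macrophage markers moved in the same direction. Of 12 Kupffer cell and macrophage genes, 6 rose on the HFD in Pparα hep-/- mice, 10 in Pparα-/- mice and 0 in WT mice, and 0 fell in any of them. Their summed signal had a median of 49646 (range 42666 to 137022) on CTRL and 70155 (range 51316 to 102697) on the HFD in Pparα hep-/- mice. The whole-body line had 52785 (range 33043 to 110606) and 96043 (range 57470 to 120236), and in WT mice 34036 (range 25712 to 81928) and 37337 (range 18102 to 100934). In each group at least 11 of the 12 passed the background flag on 4 or more of its 8 arrays. Trem2, a receptor of lipid-laden macrophages, rose by 1.81 in Pparα hep-/- mice and by 1.84 in Pparα-/- mice. Stellate cell genes did the same, with 3 of 8 higher in Pparα hep-/- mice and 6 in Pparα-/- mice. On the HFD in Pparα-/- mice 2 of 7 neutrophil genes and 2 of 6 endothelial genes rose, 1 of 7 lymphocyte genes fell, and 0 of 6 cholangiocyte genes were called. In Pparα hep-/- mice 2 of 6 endothelial and 1 of 6 cholangiocyte genes rose. There 1 of 7 lymphocyte genes fell and 0 of 7 neutrophil genes were called. Against WT on the HFD, where Acot9 was higher, 9 of the 12 macrophage and 7 of the 8 stellate genes were higher in Pparα hep-/- mice, and 11 and 8 in Pparα-/- mice. The part of these cells in the Acot9 result was not tested.

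Acot12, the acetyl-CoA thioesterase, rose on the HFD in WT mice and was lower in both deleted lines on that diet. In WT mice it ranged from 11.62 to 12.37 on CTRL and from 11.78 to 12.59 on the HFD, a difference of 0.32 (SE 0.08, adjusted p = 0.00484). Replicates 1 and 2 were the lowest of the HFD mice here as well, at 12.04 and 11.78. On the HFD it differed from WT by -0.32 (SE 0.07, adjusted p = 0.000941) in Pparα hep-/- mice and by -0.41 in Pparα-/- mice (SE 0.07, adjusted p = 9.37e-06), where 0 of 8 mice were above the WT mean. The plain differences within the wash batches were -0.09 and -0.33 for the first line and -0.11 and -0.44 for the second. Without array weights only the Pparα-/- difference was called (-0.27, adjusted p = 0.0436), and the rise in WT mice was 0.25 (adjusted p = 0.119). When the 2 low WT mice were left out the rise was 0.38 and the differences from WT were -0.38 and -0.47, all called.

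Acot13 rose by 0.41 on the HFD in WT mice (SE 0.10, adjusted p = 0.00400), and its rise was 0.27 (SE 0.09, adjusted p = 0.0233) in Pparα hep-/- mice. WT CTRL mice ranged from 14.42 to 14.81 and the 6 WT HFD mice other than replicates 1 and 2 were at 14.95 or above, with the 2 at 14.33 and 14.42. Without these 2 mice the WT rise was 0.49 (adjusted p = 8.53e-05), and without array weights it was 0.31 (adjusted p = 0.0556). The call in Pparα hep-/- mice was lost in 4 of the 15 settings, with 0.19 (adjusted p = 0.440) without weights, 0.12 (0.302) with the processed signal, 0.25 (0.104) without the filter and 0.23 (0.0848) without the wash term. For Pparα-/- mice the difference was 0.22 (interval 0.03 to 0.40, adjusted p = 0.0771), with 8 of 8 HFD mice above the CTRL mean. The interval of the difference between responses was -0.14 to 0.41 for WT against Pparα hep-/- mice and -0.09 to 0.47 for WT against Pparα-/- mice. The fold changes of Acot13 and Acot12 were small beside those of the clustered genes, at 1.32-fold and 1.25-fold in WT mice.

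Acot7 had 2 probes that lie on different parts of the gene, and the first 30 bases of each are shown because they gave different calls in Pparα-/- mice.
Acot7 brighter probe, chr4:151645802-151645861: ttgagtggcagtgttccctatggcccatcc
Acot7 dimmer probe, chr4:151627308-151627367: cactgcaagaccaacatagtaactgcctct
In Pparα hep-/- mice Acot7 fell by 0.28 with the brighter probe (adjusted p = 0.00438) and by 0.24 with the dimmer one (adjusted p = 0.0154). The brighter probe gave -0.05 (interval -0.21 to 0.10) in Pparα-/- mice and the dimmer one -0.23 (adjusted p = 0.0211). On the HFD the dimmer probe was also lower in Pparα-/- mice than in WT mice (-0.27, adjusted p = 0.00190) and than in Pparα hep-/- mice (-0.24, adjusted p = 0.00528), where the brighter one gave -0.10 for both. In WT mice neither probe was called, and replicates 1 and 2 were again the lowest HFD mice of the brighter probe, at 11.39 and 11.05 against 11.68 to 12.08 on CTRL. Without array weights the fall in Pparα hep-/- mice was -0.19 (adjusted p = 0.330).

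**Figure D5:**
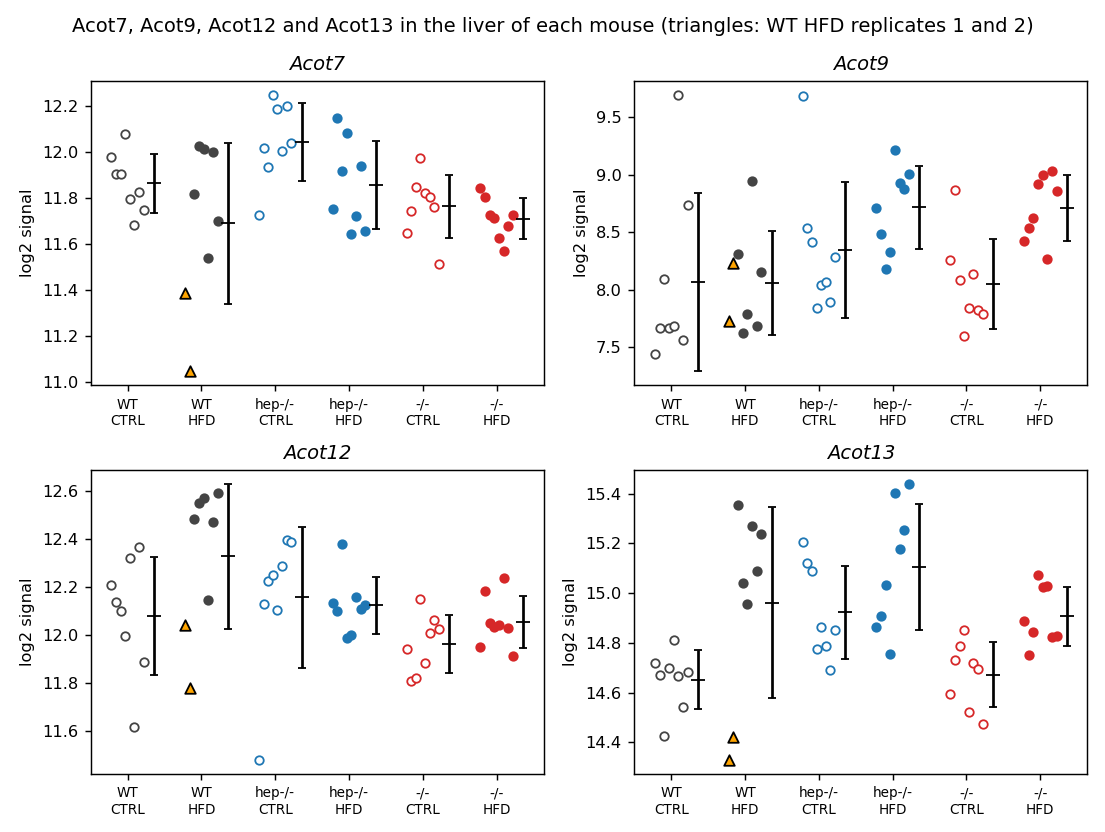
Log2 signal (vertical axis) of Acot7, Acot9, Acot12 and Acot13 in each mouse of the 6 groups (horizontal axis), with open points for CTRL, filled points for HFD, orange triangles for WT HFD replicates 1 and 2, and the mean ± SD of 8 mice. The triangles are the lowest WT HFD mice except for Acot9, where they lie at 7.73 and 8.23 within the group.

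Acot1 to Acot5 correlated closely with each other. The values of Acot13 with them overlapped that range in part, and Acot7, Acot9 and Acot12 followed them less. Over the 48 arrays, with the wash batch removed, the 10 pairs among Acot1 to Acot5 had Pearson's r of 0.75 to 0.97. With the group means also removed, so that only the spread among mice of a group was left, r was 0.69 to 0.97. Acot13 followed the 5 genes at r of 0.61 to 0.79, Acot7 at 0.18 to 0.47, Acot9 at 0.12 to 0.60 and Acot12 at 0.06 to 0.37. These values describe arrays that share their normalisation and, for the WT HFD group, the 2 low mice. Probes of different members shared at most 9 bases in a row, but whether a probe also binds the transcript of a paralog was not tested.

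Of the genes outside the set, the 3 with the highest r over the same 48 arrays are named for each member. Acot3 and Acot4 were most like Gm32618 (r of 0.95 and 0.94) and Gm23952 (0.94 and 0.95), a transcribed pseudogene and a long noncoding RNA that RefSeq places on chromosomes 15 and 13 of GRCm38.p6, away from the Acot genes. Next came Fabp2, an intestinal-type fatty acid binding protein, for Acot3 (0.86) and Rxrg, a retinoid X receptor, for Acot4 (0.86). Acot1 was most like Gm23952 (0.84), Btg1 (0.79) and Lipa (0.78), and Acot5 like Gm32618 (0.81), Lipa (0.80) and Gm23952 (0.78). Lipa encodes the lysosomal acid lipase. Acot2 was most like Pctp (0.91), S100a10 (0.90) and the fatty acid transporter Cd36 (0.90). Acot9 was most like a probe with no gene name (0.96), S100a11 (0.96) and an unnamed transcript (0.95). Acot12 had Pithd1 (0.80), a probe named only by a chromosome position (0.79) and Baat (0.78). Baat is the enzyme that joins bile acids to amino acids and belongs to the same wider class as several thioesterases. Acot13 had D730003I15Rik (0.84), Syap1 (0.83) and Tmem64 (0.82). Acot7 had Gm5079 (0.81), a probe named only by a chromosome position (0.80) and Txnl4b (0.79).

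Acot6, the next paralog on chromosome 12 after Acot5 in RefSeq's order of genes, followed the cluster in part. It rose by 0.92 on the HFD in WT mice (SE 0.17, adjusted p = 0.000130) and by 0.50 in Pparα-/- mice (adjusted p = 0.0124), and gave 0.35 in Pparα hep-/- mice (adjusted p = 0.0717). Acot6 was 1.18 higher in Pparα hep-/- than WT mice on CTRL (SE 0.16, adjusted p = 6.95e-07). On the HFD it was higher than in WT mice too, by 0.61 (adjusted p = 0.00172) in Pparα hep-/- mice and by 1.15 in Pparα-/- mice (adjusted p = 1.54e-08). Numb, beyond the cluster on its other side, gave -0.07 for the HFD in WT mice (adjusted p = 0.556).

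Among 11 other thioesterases, Them5 and Olah did not pass the signal filter. Of the remaining 9, 6 rose and 0 fell on the HFD in WT mice, with a median difference of 0.36 against 0.00 over all genes. Leaving out the 2 low WT mice, 5 rose, and Acot6 (1.04), Acot8 (0.46) and Acot11 (0.88) were among the calls. In Pparα hep-/- mice 2 rose and 1 fell, and in Pparα-/- mice 2 rose and 0 fell. Acot8, a peroxisomal enzyme of broad substrate range, rose by 0.42 in WT mice (adjusted p = 9.85e-06) and was lower than WT on the HFD by -0.74 in the hepatocyte-specific line (adjusted p = 1.19e-13) and by -0.995 in the whole-body one (adjusted p = 2.88e-19). Acot11 rose by 0.86 in WT mice (adjusted p = 0.00524) and was 1.33 higher in Pparα hep-/- than WT mice on CTRL (adjusted p = 1.23e-05). Acot10, a close paralog of Acot9 whose signal the probes may share, rose by 0.54 (adjusted p = 0.00236) in Pparα hep-/- mice and by 0.66 in Pparα-/- mice (adjusted p = 0.000362).

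The genes that make or consume the same acyl-CoA gave mixed counts. Of 18 acyl-CoA synthetases that passed the filter, out of 20 listed, 7 rose and 1 fell on the HFD in WT mice, 4 rose and 7 fell in Pparα hep-/- mice, and 4 rose and 2 fell in Pparα-/- mice. Acsl1, the main long-chain synthetase of liver, rose by 0.70 in WT mice (adjusted p = 0.000410) and was lower than WT on the HFD in Pparα hep-/- mice (-0.81, adjusted p = 3.57e-06). Acss2, which activates acetate, fell by 1.49 (adjusted p = 1.64e-06) in Pparα hep-/- mice. In the fit without the 2 low WT mice 8 synthetases rose and 1 fell on the HFD in WT mice. Of 12 genes of CoA synthesis and breakdown, 6 rose and 1 fell in WT mice (6 and 2 without the 2 low ones), among them Pank1 (0.60, adjusted p = 5.12e-05), which catalyses the first step of CoA synthesis. In Pparα hep-/- mice 1 rose and 1 fell, the latter Nudt7, a peroxisomal CoA hydrolase (-0.82, adjusted p = 0.000732). Of the 30 PPARα targets of fatty acid oxidation 25 rose and 0 fell on the HFD in WT mice, with a median of 0.60 (28 and 0 without the 2 low mice), and 18 rose in each deleted line, with 1 fall in Pparα hep-/- mice, Ehhadh (-0.42, adjusted p = 0.0486).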

How the data were processed

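Liver RNA of 48 mice was measured on 1-colour Agilent arrays. The authors deposited Feature Extraction 10.10.1.1 output for each array. Its median spot intensities, used here, were neither background subtracted nor normalised, per the file headers. Its processed intensity had been background subtracted and detrended, per the file headers. The authors also deposited a table of log2 values, made by filtering, quantile normalisation and a correction for the bath used in washing, and used here only for comparison.

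Outlier spots were removed and spots of a probe averaged. A probe was kept if it was flagged well above background on 4 or more arrays in any group of 8 (33323 of 56605). Values were taken to log2 and quantile normalised. limma 3.58.1 in R was fitted to all of them with 6 group means, array weights and a term for wash batch, and Benjamini-Hochberg adjustment was made within each of 12 comparisons. Probes with missing values (193 in all) were fitted on the arrays that had them. A gene is represented by its tested probe of highest mean signal, and other probes are given too. The code was tested on simulated data.

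The members, the 12 other gene lists and the tests were chosen with earlier results of these data known. Named are all probes of the members, the 3 genes most correlated with each member, a few reference genes, and up to 3 genes per list, direction and comparison with the largest called difference. Cfd and Numb were named after their values were seen. Other fits changed the weights, signal, background correction, filter, batch term, probe choice or arrays, or used the authors' table. RefSeq sequences are those of GRCm38.p6, and probe positions those of mm9. A protein table was not used here.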

Additional observations from a re-analysis of the deposited data

Results flagged for a closer look

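In 54 combinations of an Acot gene and a group, 7 held 1 mouse whose gap to the nearest other mouse exceeded Dixon's 95% critical value for 8 samples. Chance alone flags about 1 in 20. Replicate 3 of the Pparα-/- CTRL mice was the highest of its group for Acot1 (15.04), Acot2 (10.2) and Acot5 (9.65 log2 signal), and its array weight was 0.419. Replicate 1 of the Pparα hep-/- CTRL mice, the array of lowest weight (0.189), was highest for Acot2 (10.8) and Acot9 (9.69) and lowest for Acot12 (11.5). Replicate 3 of the Pparα hep-/- HFD mice was highest for Acot12 (12.4). The 2 low WT HFD mice were not marked by this measure. A gap between 2 low mice can be small beside the range of the group, as for Acot1, where the ratio was 0.254.

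The response to the HFD differed between WT and Pparα hep-/- mice, by a test of the difference itself, for Acot1 (2.13), Acot2 (1.45), Acot4 (1.11), Acot5 (1.80) and Acot12 (0.44). It differed between WT and Pparα-/- mice for Acot1 (1.94) and Acot5 (1.39). All values are on the log2 scale. None of these 7 calls held without array weights, and that of Acot1 against Pparα-/- mice was also lost without replicate 3 of the Pparα-/- CTRL group (1.80, adjusted p = 0.0580). The dimmer Acot5 probe gave -0.03 and -0.01.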

How the results depend on the processing

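Of the 34 called Acot differences, 33 or 34 stayed called with the processed signal, normexp, the authors' table, the mean of a gene's probes or without the array of lowest weight, and none changed direction under any of the 15 settings. Without array weights 9 stayed called, without the filter 22, without the wash term 25, with slide as a block 30. Without weights the number of Acot genes called fell from 7 to 1 for the HFD in WT mice, from 3 to 0 in Pparα hep-/- and 1 to 0 in Pparα-/- mice, from 1 to 0 for Pparα-/- against WT on CTRL, 3 to 1 for Pparα-/- against Pparα hep-/- on CTRL and 1 to 0 on the HFD, 4 to 2 for Pparα-/- and 2 to 0 for Pparα hep-/- against WT on the HFD, and from 5 and 2 to 0 for the differences of response between WT and the deleted lines. The share of all genes called also fell without weights in each of these comparisons. It went from 22.5% to 4.41% for the HFD in Pparα hep-/- mice and from 26.4% to 13.1% in Pparα-/- mice. For Pparα-/- against WT on CTRL it went from 35.3% to 31.9%. For the difference of response between WT and Pparα-/- mice it went from 15.5% to 5.66%. The cause was not tested.

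For the difference of response between WT and Pparα hep-/- mice, 1 gene was called without the filter, 1 without the wash term and 3 with slide as a block. For WT against Pparα-/- mice these counts were 0, 0 and 1. For Pparα-/- against WT on the HFD, 2 were called without the filter and 2 without the wash term, and the filter's removal left 0 for Pparα-/- against WT on CTRL and 0 for Pparα-/- against Pparα hep-/- on the HFD. Normexp gave 2 for the HFD in Pparα-/- mice and 5 for Pparα-/- against Pparα hep-/- on CTRL. The mean of probes gave 3 for the HFD in Pparα-/- mice and 2 for Pparα-/- against Pparα hep-/- on the HFD.

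The settings that leave out arrays, other than the array of lowest weight, were added after the data were seen. Without the 2 low WT HFD mice, 5 genes were called for the HFD in Pparα-/- mice, 2 for Pparα-/- against WT on CTRL, 6 for Pparα-/- against Pparα hep-/- on CTRL, 8 for Pparα-/- against WT on the HFD and 5 for the difference of response between WT and Pparα-/- mice. In that fit 16.9% of all genes were higher and 18.2% lower for Pparα-/- against WT on CTRL. For Pparα-/- against Pparα hep-/- on CTRL 13.4% were higher and 13.5% lower. Without the 5 arrays of weight under 0.5 the counts were 3 for the HFD in Pparα-/- mice, 5 for Pparα-/- against Pparα hep-/- on CTRL and 5 for the difference of response. Without WT HFD replicate 1 or 2 or Pparα-/- CTRL replicate 3 in turn they ranged from 2 to 3, from 4 to 5 and from 1 to 5 respectively. Among the alternative fits, shares of all genes are given only for that without array weights and that without the 2 low WT HFD mice.

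Replicate numbers gave no sign of pairing the mice, though these values cannot exclude it. The correlation of deviations between mice of the same number in different groups had a median of 0.0223 over 120 pairs (range -0.449 to 0.694). For mice of different numbers the median was -0.0023 over 840 pairs (range -0.527 to 0.754). With the replicate block 29 of the 34 differences stayed called, and 2 genes in place of 5 were called for the difference of response between WT and Pparα hep-/- mice, and 1 in place of 2 for WT against Pparα-/- mice. The other lost call was that of Acot1 for Pparα-/- against WT on the HFD.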
